A study of Mus musculus with 12 samples.

Results

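Krueppel-like factors (KLFs) are DNA-binding proteins that regulate transcription in many tissues, and 7 of their genes, Klf3, Klf6, Klf9, Klf10, Klf12, Klf13 and Klf15, were followed here in the m6A profiles of livers from cadmium-exposed and control mice. Every peak annotated to one of these genes was taken, whether or not the peak also carried another gene symbol. All 7 genes had at least 1 peak, and together they held 50 of the 37118 peaks in the table. The cadmium group was wild-type male C57BL/6 mice given CdCl2, a salt of the toxic metal cadmium, at 20 mg/kg/day by gavage for 90 days. The control group was wild-type male C57BL/6 mice given 0 mg/kg/day over the same time. The protocol gives an age of 6 to 8 weeks and 6 animals per group, and each group here had 3 samples, named replicates 1, 2 and 3. How samples relate to animals is not stated, so the p-values measure the spread between these samples, part of which may be technical. In MeRIP-seq, RNA fragments that carry N6-methyladenosine (m6A) are pulled down with an antibody and sequenced, and a peak is a stretch where such fragments pile up. The comparison asked which of these peaks differ in livers exposed to cadmium.

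KLF proteins grip DNA through zinc fingers at the C-terminal end, which recognise GC-rich boxes and CACCC elements. Their N-terminal parts differ and decide which partners they bring, such as the CtBP and Sin3A corepressors or histone acetyltransferases. Several liver KLF genes respond to feeding, glucocorticoids and the circadian clock, and the RNAs of many KLF genes are short-lived. m6A is written on nascent RNA by the Mettl3-Mettl14 complex, is found most often around stop codons and in long last exons, and affects how long an RNA lives and how well it is translated.

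The genes whose peak counts differed most were Klf13, Klf3 and Klf15. Their DNA just before the annotated start is shown because the peaks of all 3 genes lay lower in cadmium samples and a peak lay next to this window in each gene. The windows are the 250 bases before the start in RefSeq, build GRCm38.p6, read 5′ to 3′ on the strand of the gene. Capitals mark an E-box (CACGTG, the kind of site that clock factors bind), a GC box (GGGCGG or CCGCCC on the other strand) or a CACCC element (CACCC or GGGTG on the other strand).
Klf13, chr7:63938916-63939165, minus strand: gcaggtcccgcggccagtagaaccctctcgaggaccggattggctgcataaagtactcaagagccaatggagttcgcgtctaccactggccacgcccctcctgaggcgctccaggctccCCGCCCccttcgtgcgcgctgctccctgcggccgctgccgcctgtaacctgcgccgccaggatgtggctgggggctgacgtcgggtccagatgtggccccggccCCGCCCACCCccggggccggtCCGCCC
Klf3, chr5:64803271-64803520, plus strand: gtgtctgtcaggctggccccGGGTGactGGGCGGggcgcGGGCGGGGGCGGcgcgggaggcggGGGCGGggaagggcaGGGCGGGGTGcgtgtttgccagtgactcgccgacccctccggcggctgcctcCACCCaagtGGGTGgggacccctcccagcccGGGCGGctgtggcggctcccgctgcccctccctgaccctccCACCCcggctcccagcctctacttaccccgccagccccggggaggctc
Klf15, chr6:90462326-90462575, plus strand: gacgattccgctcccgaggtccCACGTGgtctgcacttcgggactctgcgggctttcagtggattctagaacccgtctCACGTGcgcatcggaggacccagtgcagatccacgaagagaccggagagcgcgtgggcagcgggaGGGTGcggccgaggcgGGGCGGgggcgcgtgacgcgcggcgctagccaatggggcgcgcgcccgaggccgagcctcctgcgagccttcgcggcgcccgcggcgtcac
The Klf3 window held 6 GC boxes and 5 CACCC elements, and the Klf13 window held 3 GC boxes and 1 CACCC element. In both windows 1 base belonged to 2 of the marked motifs. The Klf15 window held 2 E-boxes, starting 228 and 172 bases before the start, with 1 GC box and 1 CACCC element. Of the other genes with an entry, Klf6 had 1 E-box 43 bases before the start and 1 GC box, while Klf9 and Klf12 had 1 CACCC element each. Across 32851 RefSeq windows of the same length, 6.02% held an E-box, 32.7% a GC box and 52.01% a CACCC element. These matches are a description of letters, and binding was not measured.

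Of the 6 genes with an annotated start in that table, 5 had a peak within 200 bp of it. The gap was 62 bp for Klf3, 64 bp for Klf13, 71 bp for Klf15 and 80 bp for Klf6, while the Klf9 peak spanned the start with 164 bases before it. The annotated start of Klf15, at 90462576, lies inside the gene, whose annotated extent begins at 90461043. That of Klf12 also lies inside the gene, 38417 bp from the nearest peak. By the same measure, 32.3% of 9187 genes with a peak and an annotated start had a peak that close. The larger share of the counts lay elsewhere. The leading peak, the one with the highest mean level over the 6 samples, lay 90.2% along the length of Klf9, 91.2% along Klf13, 88.6% along Klf3 and 97.9% along Klf12. In Klf15 it lay 19.2% and in Klf6 39.9% along the annotated gene. Exon and UTR positions were not analysed here.

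Samples totalled 40174736 to 52338612 counts in peaks. The pair of peaks with the most counts took 4.95% to 19.7% of a sample, the lowest share being that of control replicate 2, which also stood apart for Klf3, Klf6 and Klf10 below. Counts of a single KLF peak ranged from 32 to 20240 per sample. All 6 hepatocyte markers had peaks, with summed levels of 8030 to 8876 CPM in cadmium samples and 8169 to 8899 CPM in control samples. Their median log2 change (cadmium over control) was -0.02. None had an edgeR adjusted p below 0.05, and 1, Hnf4a, had an unadjusted p below 0.05. Hnf4a had 423, 481 and 408 CPM in cadmium samples, against 585, 581 and 511 CPM in control samples (log2 change -0.35, edgeR adjusted p = 0.154). CPM is the count scaled to a common library size with TMM factors. The counts reflect both how much RNA of a gene was present and what share of it was methylated, since input counts were not used here. In whole liver, fewer cells of a type and less RNA per cell also cannot be told apart.

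Of the 50 KLF peaks, 11 were called, all lower in cadmium samples, where called means an adjusted p below 0.05 by edgeR's quasi-likelihood test with Benjamini-Hochberg adjustment over 37088 peaks. That is 22% of the KLF peaks, against 6.27% of all peaks called in either direction, 2.72% lower and 3.55% higher. The 7 genes were chosen with earlier results of these data known, so the shares here and below do not test the family. The calls were 6 of 6 peaks in Klf13, 3 of 7 in Klf3 and 2 of 5 in Klf15, and none of 32 peaks in Klf6, Klf9, Klf10 and Klf12, where DESeq2 also called 0. In those 4 genes the unadjusted edgeR p was below 0.05 at 3 of 4, 1 of 4, 0 of 4 and 10 of 20 peaks, against 21.8% of all peaks. The log2 change was below 0 at all 18 peaks of Klf3, Klf13 and Klf15 and above 0 at all 32 peaks of the other 4 genes. Peaks of a gene share its RNA and are not independent. At 17 peaks every cadmium sample lay below every control sample, a pattern found at 12.5% of all peaks. At 16 peaks every cadmium sample lay above every control sample, which 14.4% of all peaks did. The median log2 change was 0.26 over the KLF peaks and -0.0031 over all peaks. The unadjusted p was below 0.05 at 32 of the 50 peaks, and at 21.8% of all peaks.

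**Figure D1:**
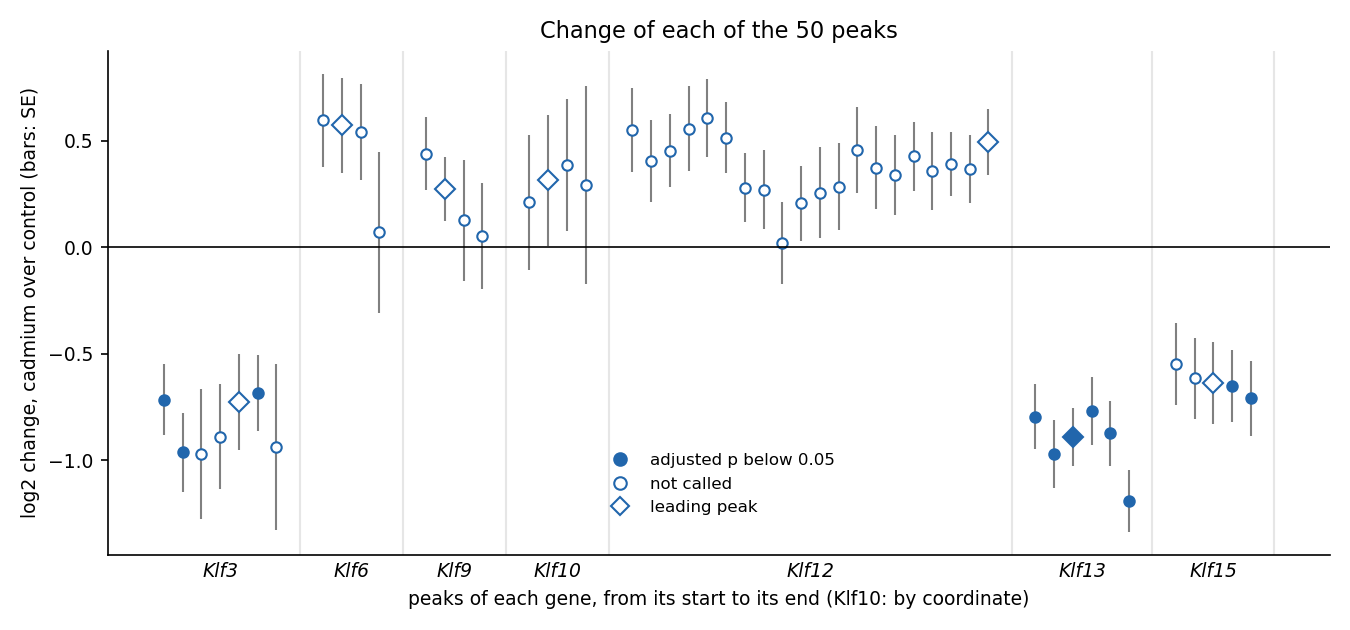
Log2 change (cadmium over control) of each of the 50 KLF peaks, in order from the start to the end of each gene (by coordinate for Klf10), with bars of 1 SE. Filled symbols are peaks with an adjusted p below 0.05 and diamonds the leading peak of each gene. All 18 points of Klf3, Klf13 and Klf15 lie below 0 (-0.55 to -1.19) and all 32 points of the other genes above 0 (0.02 to 0.61), and the 11 filled points are all in Klf3, Klf13 and Klf15.

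When the counts of all peaks of a gene were summed, 3 of the 7 genes were called, all lower in cadmium samples. Over 13050 genes, 10.2% were called by the same test on such sums, 4.18% lower and 5.98% higher. edgeR's test of whether a peak departs from the other peaks of its gene called 0 of the 49 KLF peaks it could be run on, and none had an unadjusted p below 0.05. The test grouped peaks by their whole annotation. The 3 Klf12 peaks that also carry 4930517O19Rik were thus compared only with one another, not with the rest of Klf12. It called 9 of 30443 peaks in the whole table, 0.0296%.

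Klf13, a GC-box-binding repressor that recruits Sin3A and is best known for controlling Ccl5 in T lymphocytes, had lower counts at every peak. Over its 6 peaks on chromosome 7 the summed level was 219.7, 240.4 and 228 CPM in cadmium replicates 1, 2 and 3, against 447, 424 and 392 CPM in control replicates 1, 2 and 3. The groups did not overlap, and the gap between the lowest control and the highest cadmium sample was wider than the spread within either group. The means were 229 ± 10.4 CPM in cadmium samples and 421 ± 27.5 CPM in control samples (SD, n = 3 each), 1.86-fold lower with cadmium (log2 change -0.90, SE 0.12, edgeR adjusted p = 0.00293). Within batches 1, 2 and 3 the log2 ratios were -1.02, -0.82 and -0.78. The sums stayed called with any single library left out (adjusted p at most 0.0246).

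The leading Klf13 peak (63890110 to 63891821) had 136, 151 and 143 CPM in cadmium samples, against 271, 286 and 241 CPM in control samples. It held 63.1% of the counts of the gene and was lower by a log2 change of -0.89 (SE 0.14, edgeR adjusted p = 0.00545). The peak nearest the gene end (63886582 to 63886846) had the steepest fall, with 7.90, 7.89 and 7.27 CPM in cadmium samples and 18.8, 17.01 and 16.9 CPM in control samples. Its log2 change was -1.19 (SE 0.14, edgeR adjusted p = 0.00192), and its departure from the other Klf13 peaks was -0.22 on the log2 scale (edgeR unadjusted p = 0.145). The peak at the annotated start (63937919 to 63938851) had 38.0, 39.7 and 40.3 CPM in cadmium samples, against 77.6, 57.8 and 69.3 CPM in control samples. The gene was thus lower at both of its ends, with log2 changes of -0.79 at the start peak (SE 0.15, edgeR adjusted p = 0.015) and -0.77 to -0.97 at the 3 peaks not yet named. Those were the peaks from 63887690 to 63888101 (-0.87, adjusted p = 0.0101), from 63888943 to 63889457 (-0.77, adjusted p = 0.0204) and from 63899824 to 63899950 (-0.97, adjusted p = 0.00788). Without cadmium replicate 3 the calls were lost at the start peak (adjusted p = 0.0793), the peak from 63887690 (0.0766) and the peak from 63888943 (0.110), which left 3 of 6. Without control replicate 3 they were lost at the start peak (0.0538) and the peak from 63888943 (0.0513), which left 4. The peak from 63888943 was also not called without cadmium replicate 1 (0.0573) or cadmium replicate 2 (0.0503). In the authors' deposited table the peak nearest the gene end was the only KLF peak marked Down (log2 fold change -1.20), and none was marked Up, against 1.58% of all peaks marked Down and 4.24% marked in either direction. Every peak marked in the authors' deposited table has a log2 fold change of at least 1 in size. An adjusted p below 0.05 in the authors' deposited table was found at 16 of the 50 KLF peaks and at 9.92% of all peaks.

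**Figure D2:**
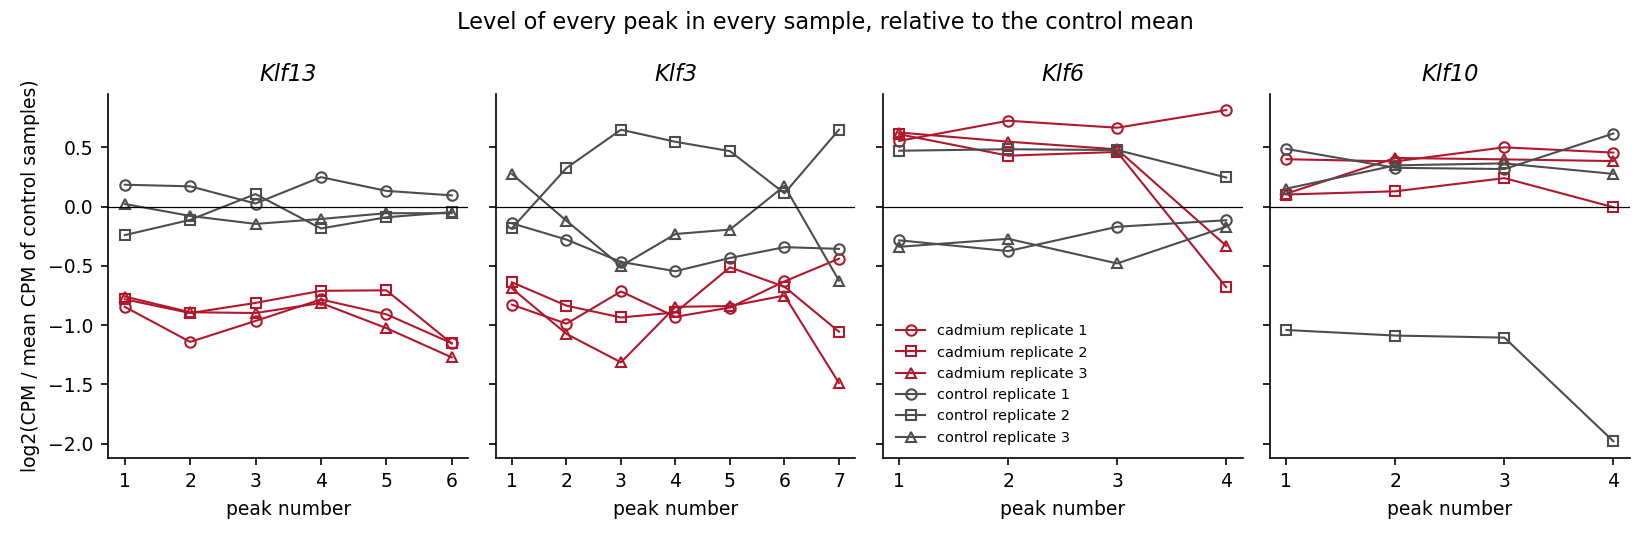
Level of every peak of Klf13, Klf3, Klf6 and Klf10 in every sample, as the log2 ratio of its CPM to the mean CPM of the 3 control samples, with peaks numbered from the start to the end of the gene (by coordinate for Klf10). Cadmium samples of Klf13 lie below all control samples at all 6 peaks, while control replicate 2 lies highest at 5 of the 7 Klf3 peaks, beside the cadmium samples for Klf6, and lowest for Klf10.

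Klf3, which represses transcription by recruiting CtBP and acts in red cell and fat cell development, was also lower. Its 7 peaks on chromosome 5 summed to 89.5, 102.4 and 88.8 CPM in cadmium replicates 1, 2 and 3, against 124, 206 and 151 CPM in control replicates 1, 2 and 3. All cadmium samples lay below all control samples, and control replicate 2 was the highest of the 6. The means were 93.5 ± 7.64 CPM in cadmium samples and 160.3 ± 41.4 CPM in control samples (SD, n = 3 each), 1.73-fold lower with cadmium (log2 change -0.79, SE 0.17, edgeR adjusted p = 0.0198). Within batches 1, 2 and 3 the log2 ratios were -0.47, -1.01 and -0.77. The call on the sums was lost without cadmium replicate 1 (adjusted p = 0.0548) or cadmium replicate 3 (0.0892) and with no scaling factor (0.0651), at log2 changes of -0.75 to -0.76.

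At the Klf3 leading peak (64828900 to 64830184) the levels were 40.7, 51.5 and 41.0 CPM in cadmium samples, against 54.3, 101.6 and 64.2 CPM in control samples. The groups did not overlap there, but the peak was not called (log2 change -0.72, SE 0.22, edgeR adjusted p = 0.0848). With the replicate as a block in the fit it was called (adjusted p = 0.0277), as was the peak from 64827061 to 64827358 (0.0465, against 0.0588 without the block). Both were also called without control replicate 1 (0.0358 and 0.0191). The Klf3 peak with the smallest p (64822009 to 64822232) had 7.05, 7.83 and 6.64 CPM in cadmium samples, against 11.5, 17.5 and 12.9 CPM in control samples. Its log2 change was -0.96 (SE 0.19, edgeR adjusted p = 0.0154), and without cadmium replicate 3 its adjusted p was 0.0888. The other called peaks lay at the start of the gene (64803583 to 64803837, log2 change -0.72, edgeR adjusted p = 0.0312) and near its end (64830827 to 64830988, log2 change -0.68, adjusted p = 0.0469). The start peak is also annotated to Gm20033, and reads of the overlapping genes could not be told apart. The number of Klf3 peaks called was 3 in full, 0 without cadmium replicate 3, 1 without cadmium replicate 1, cadmium replicate 2 or control replicate 3, and 5 without control replicate 1. It was 6 by DESeq2, which also called the leading peak (adjusted p = 0.0181), the peak from 64827061 (0.00612) and the peak from 64822882 to 64823161 (0.0150), and 1 with no scaling factor. At the 105-bp peak that ends the gene (64832760 to 64832865) the groups overlapped.

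Klf15, which is induced by fasting and glucocorticoids in liver and drives genes of amino acid breakdown and gluconeogenesis, had the highest mean level per kb of peak among the 7 genes in both groups. Its 5 peaks on chromosome 6 summed to 277, 424 and 326 CPM in cadmium replicates 1, 2 and 3, against 442, 556 and 605 CPM in control replicates 1, 2 and 3. The groups did not overlap, although cadmium replicate 2 came close to control replicate 1. The means were 342 ± 74.9 CPM in cadmium samples and 534 ± 83.4 CPM in control samples (SD, n = 3 each), 1.58-fold lower with cadmium (log2 change -0.66, SE 0.17, edgeR adjusted p = 0.0407). Within batches 1, 2 and 3 the log2 ratios were -0.68, -0.39 and -0.89. The call was lost without cadmium replicate 1 (adjusted p = 0.107), cadmium replicate 3 (0.155), control replicate 2 (0.0866) or control replicate 3 (0.124), and with no scaling factor (0.103).

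The Klf15 leading peak (90466330 to 90467562) held 72.8% of the counts of the gene, with 200.0, 312 and 238 CPM in cadmium samples against 314, 403 and 447 CPM in control samples. It did not overlap between groups yet was not called (log2 change -0.64, SE 0.19, edgeR adjusted p = 0.0784). With the replicate block it was called (adjusted p = 0.0270), as was the peak from 90465350 to 90465487 (0.0363, against 0.0830 without the block). The leading peak was also called without cadmium replicate 2 (0.0392) or control replicate 1 (0.0476). The called Klf15 peaks were the 2 farthest from the gene start, from 90467708 to 90467898 (log2 change -0.65, SE 0.17, edgeR adjusted p = 0.0487) and from 90474050 to 90474382 (-0.71, SE 0.18, adjusted p = 0.0411). Neither stayed called when cadmium replicate 1, cadmium replicate 3, control replicate 2 or control replicate 3 was left out (adjusted p 0.0857 to 0.222), or with no scaling factor (0.134 and 0.0960). DESeq2 called 4 Klf15 peaks, the leading one among them (adjusted p = 0.0222). All 5 peaks lay lower by a similar amount, at log2 changes of -0.55 to -0.71.

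**Figure D3:**
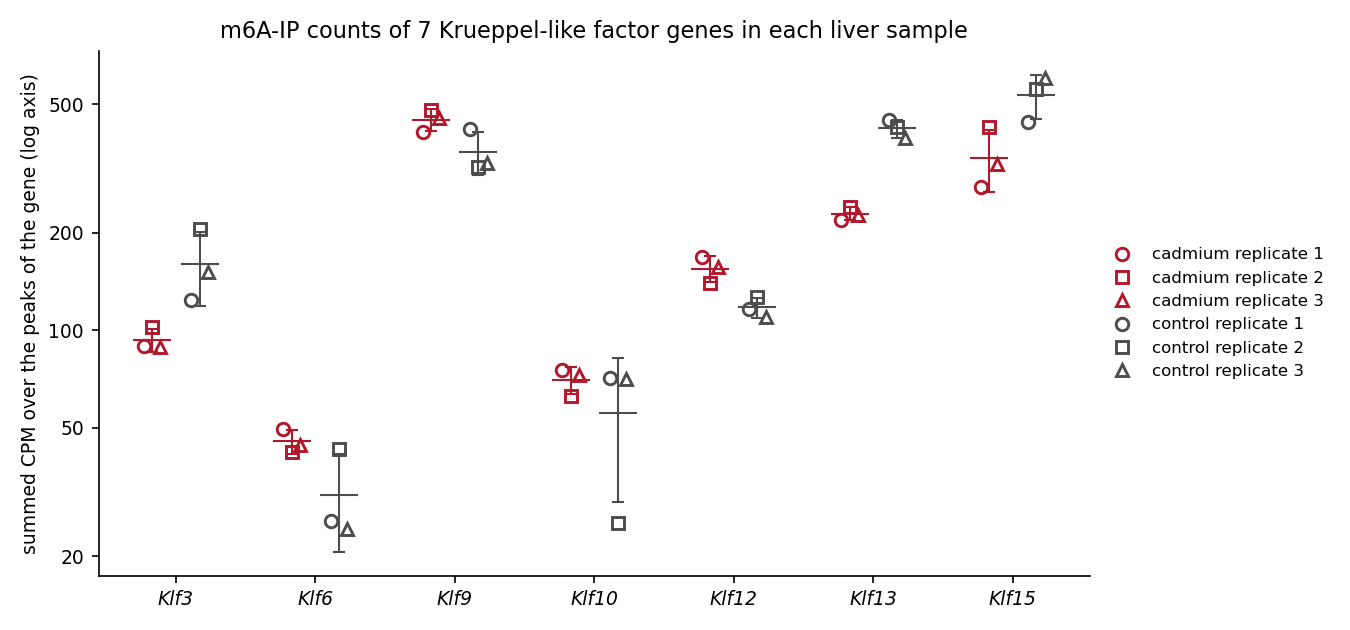
CPM summed over the peaks of each KLF gene (log axis) in each of the 3 cadmium samples (red, left of each pair) and 3 control samples (grey, right), with the mean and SD of each group; symbols give the replicate. Klf13 stands at 219.7 to 240.4 CPM in cadmium samples, against 392 to 447 CPM in control samples, with no overlap, and control replicate 2 stands apart for Klf3, Klf6 and Klf10.

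Klf12, a CtBP-recruiting repressor first described as a regulator of the AP-2alpha gene, had the most peaks of the 7 genes and none was called. Its 20 peaks on chromosome 14 summed to 169, 140.3 and 156 CPM in cadmium replicates 1, 2 and 3, against 117, 127 and 110.1 CPM in control replicates 1, 2 and 3. The groups did not overlap, but the difference did not pass the test over all genes (log2 change 0.38, SE 0.12, edgeR adjusted p = 0.0808). Within batches 1, 2 and 3 the log2 ratios were 0.53, 0.15 and 0.51. The log2 change lay above 0 at all 20 peaks (0.02 to 0.61), every cadmium sample exceeded every control sample at 15 of them, and 10 had an unadjusted p below 0.05. The leading peak (99874804 to 99875351) had 35.2, 29.2 and 37.9 CPM in cadmium samples, against 25.5, 24.5 and 22.6 CPM in control samples (log2 change 0.50, SE 0.15, edgeR adjusted p = 0.0864). The smallest log2 changes lay mid-gene, where the peak from 100091214 to 100091475 had a log2 change of 0.02 (SE 0.19). The peaks of Klf12 lie along 419711 bp of annotated gene, and 3 of them also carry 4930517O19Rik, whose reads could not be separated.

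Klf6, an early-response gene switched on after injury in several liver cell types, stellate cells among them, gave values that turned on 1 control sample. Its 4 peaks on chromosome 13 summed to 49.5, 42.1 and 44.2 CPM in cadmium replicates 1, 2 and 3, against 25.7, 42.9 and 24.3 CPM in control replicates 1, 2 and 3. Control replicate 2 lay within the range of the cadmium samples, and the other control samples lay far below it. The gene was not called (log2 change 0.53, SE 0.20, edgeR adjusted p = 0.130). Without control replicate 2 the log2 change was 0.83 (adjusted p = 0.0131), and 3 of the 4 peaks were called higher. Within batches 1, 2 and 3 the log2 ratios were 0.95, -0.03 and 0.86. The leading peak (5864704 to 5865373) had 20.6, 16.8 and 18.2 CPM in cadmium samples, against 9.61, 17.4 and 10.3 CPM in control samples (log2 change 0.57, SE 0.22, edgeR adjusted p = 0.163). The start peak (5861569 to 5861922) was the only Klf6 peak without overlap, at 9.22, 9.59 and 9.68 CPM in cadmium samples and 5.15, 8.70 and 4.96 CPM in control samples (log2 change 0.60, SE 0.22, edgeR adjusted p = 0.137).

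Klf9, a GC-box-binding repressor induced by glucocorticoid and thyroid hormone, overlapped between groups. Its 4 peaks on chromosome 19 summed to 410, 481 and 454 CPM in cadmium replicates 1, 2 and 3, against 419, 320.3 and 330.2 CPM in control replicates 1, 2 and 3. Control replicate 1 exceeded cadmium replicate 1, while both other pairs lay the opposite way. The gene was not called (log2 change 0.31, SE 0.14, edgeR adjusted p = 0.212), and the log2 ratios within batches 1, 2 and 3 were -0.03, 0.59 and 0.46. The leading peak (23164594 to 23166391) had 233, 257 and 245 CPM in cadmium samples, against 237, 197 and 173 CPM in control samples (log2 change 0.28, SE 0.15, edgeR adjusted p = 0.319). The peak over the annotated start (23141062 to 23142265) had 151, 205 and 188 CPM in cadmium samples, against 153, 110.0 and 138 CPM in control samples (log2 change 0.44, SE 0.17, adjusted p = 0.161). These peaks hold most of the Klf9 counts, and neither separated the groups fully.

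Klf10, known as the TGF-beta-inducible early gene and also driven by the clock in liver, had no called peak, and its values turned on 1 control sample. Its 4 peaks on chromosome 15 summed to 75.5, 62.6 and 72.7 CPM in cadmium replicates 1, 2 and 3, against 71.0, 25.4 and 70.4 CPM in control replicates 1, 2 and 3. Control replicate 2 lay far below all other samples, which lay close together. The log2 change was 0.31 (SE 0.33, edgeR adjusted p = 0.583), and without control replicate 2 it was -0.04. Within batches 1, 2 and 3 the log2 ratios were 0.09, 1.3 and 0.05. The leading peak (38295523 to 38296190) had 32.3, 27.1 and 32.9 CPM in cadmium samples, against 31.1, 11.7 and 31.6 CPM in control samples (log2 change 0.31, SE 0.31, edgeR adjusted p = 0.602). One peak (38300500 to 38300662) ended 49 bp from the end of the annotated gene in genome coordinates.

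Mean levels per kb of peak put the genes in the same order in both groups, except that Klf3 and Klf10 changed places. In cadmium samples Klf15 averaged 169 ± 37.0 and Klf9 136 ± 10.8 CPM per kb of peak (SD, n = 3 each), with overlapping ranges. Klf13 followed at 57.9 ± 2.64 CPM per kb, overlapping neither neighbour. Klf10, Klf3 and Klf12 averaged 38.1, 35.9 and 35.1 CPM per kb in cadmium samples with overlapping ranges, and Klf6 was lowest at 21.0 ± 1.77 CPM per kb. In control samples Klf15 averaged 264 ± 41.2 CPM per kb, above all others. Klf9 and Klf13 overlapped there at 108 ± 16.6 and 106 ± 6.94 CPM per kb. Klf3 came next at 61.6 ± 15.9 CPM per kb, then Klf10 at 30.2 and Klf12 at 26.6 CPM per kb, which overlapped, and Klf6 at 14.4 ± 4.80 CPM per kb. Klf13 thus lay below Klf9 without overlap in cadmium samples and overlapped it in control samples.

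For each KLF gene the leading peaks of 5932 other genes were compared with its own over the 6 samples, each centred on its mean, and the closest are named, 2 for each gene but Klf6, with the root mean square difference of log2 CPM. The closest to Klf13 were Herpud1, an endoplasmic reticulum protein of stress and protein degradation (0.077), and Slc9a3r1, a scaffold for membrane transporters (0.0917). Both were lower in cadmium samples, with log2 changes of -0.84 (edgeR adjusted p = 0.00746) and -0.75 (0.0148). The match takes in the difference between groups. The direction of the genes named here thus follows from how they were picked, and their calls are not separate evidence. Herpud1 and Slc9a3r1 lost the call without cadmium replicate 3 (0.0568 and 0.0775). Klf15 was closest to Rdh13, a retinol dehydrogenase (0.0763), and Nop2, an rRNA methyltransferase (0.0848). Klf3 was closest to Atxn7, a subunit of the SAGA complex (0.0733), and Zbtb18, a zinc finger repressor (0.0827). Nop2 was called lower (log2 change -0.74, edgeR adjusted p = 0.0421), a call lost when cadmium replicate 1 (0.104), cadmium replicate 3 (0.172), control replicate 2 (0.0910) or control replicate 3 (0.125) was left out, and Rdh13, Atxn7 and Zbtb18 were not called. These 3 genes were called lower by DESeq2 (adjusted p = 0.0201, 0.0184 and 0.0360). edgeR called them lower with the replicate block (adjusted p = 0.0217, 0.0221 and 0.0444) and without control replicate 1 (0.0341, 0.0487 and 0.0403). For the genes with values above 0 the closest were the keratin gene Krt18 (0.0667) and Gucd1 (0.0738) for Klf12, Frmd4a (0.101) for Klf6, and the interferon-inducible GTPase gene Iigp1 (0.0629) and the ATP-gated channel gene P2rx4 (0.0686) for Klf9. Klf10 had no gene as close, its nearest being the linker histone gene H1f4 (0.187) and the carbonic anhydrase gene Car14 (0.191). None of these 7 was called by edgeR on all 6 samples. Krt18 was called by DESeq2 (adjusted p = 0.0157) and by edgeR without cadmium replicate 2 (0.0476). Frmd4a was called by edgeR without control replicate 2 (0.0419).

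Genes of the same family and of the pathways that KLFs work in were read from their leading peaks, of which 6.8% were called over all 13050 genes (2.4% lower and 4.4% higher), with a median log2 change of 0.02. The lists here and below were chosen with earlier results of these data known, so their counts against these shares test no list. Of the 10 other Klf genes, 6 had a peak, and Klf5, Klf8, Klf14 and Klf17 had none. edgeR and DESeq2 each called 0 of the 6, of which 2 had an unadjusted edgeR p below 0.05, and the median log2 change was 0.15. The endothelial factor gene Klf2 averaged 19.7 ± 4.97 CPM in cadmium samples and 20.0 ± 7.38 CPM in control samples, and Klf11, a relative of Klf10, 22.5 ± 4.47 and 16.8 ± 2.44 CPM in cadmium and control samples (SD, n = 3 each). The SP family shares the zinc fingers and GC-box binding of KLFs, and 1 of its 6 measured genes was called. Sp5, a target of Wnt signalling, had 26.3, 30.0 and 30.2 CPM in cadmium samples, against 13.8, 14.2 and 18.9 CPM in control samples, without overlap. It rose by a log2 change of 0.88 (SE 0.17, edgeR adjusted p = 0.0142), with an adjusted p of 0.0776 without cadmium replicate 3. Sp1 (log2 change 0.30) and Sp3 (-0.10) were not called. edgeR and DESeq2 each called 0 of the 10 coregulators, of which 1 had an unadjusted edgeR p below 0.05, and the median log2 change was -0.04. Among them were the acetyltransferases Ep300 (-0.16) and Crebbp (-0.04).

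Of 13 measured clock and glucocorticoid genes, 4 were called lower and 1 higher (DESeq2 called 8 in all), with a median log2 change of -0.82. These genes include factors that switch Klf9, Klf10 and Klf15 on in liver. The period genes, which encode repressors within the clock, were lower in all 3 cadmium samples than in any control sample. Per2 had 16.4, 22.2 and 15.1 CPM in cadmium samples, against 54.9, 97.4 and 74.0 CPM in control samples (log2 change -2.08, SE 0.23, edgeR adjusted p = 0.00129). Per3 (log2 change -2.01, adjusted p = 0.000832), whose peak also carries Camta1, and Per1 (-1.72, adjusted p = 0.0076) were lower too. The nuclear receptor gene Nr1d1, which represses the clock activator Bmal1, lay the other way. It had 77.8, 62.2 and 59.7 CPM in cadmium samples, against 22.8, 13.9 and 30.0 CPM in control samples (log2 change 1.58, SE 0.25, edgeR adjusted p = 0.00635). Tsc22d3, a glucocorticoid-induced gene also called Gilz, had 83.1, 105.0 and 79.8 CPM in cadmium samples, against 130.5, 197 and 272 CPM in control samples. It was lower by a log2 change of -1.16 (edgeR adjusted p = 0.0196), and not called without cadmium replicate 1 (0.0625), cadmium replicate 3 (0.0967) or control replicate 3 (0.0658). The clock output gene Dbp, whose peak also carries Sphk2 (log2 change -0.82, adjusted p = 0.104, and 0.0396 without cadmium replicate 2), and the glucocorticoid receptor gene Nr3c1 (-0.05) were not called. The labels do not say at which hour the livers were taken, and the part of that hour in these values was not tested.

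Of 13 measured genes of amino acid breakdown and gluconeogenesis, a process that Klf15 promotes, 2 were lower and 0 higher, with a median log2 change of -0.31. Tat, which starts tyrosine breakdown, had 129, 169 and 112 CPM in cadmium samples, against 252, 372 and 313 CPM in control samples (log2 change -1.20, SE 0.19, edgeR adjusted p = 0.00725). Pck1, which encodes a rate-limiting enzyme of gluconeogenesis, had 594, 999 and 807 CPM in cadmium samples, against 1538, 1504 and 1223 CPM in control samples (log2 change -0.83, SE 0.19, adjusted p = 0.0295). In neither gene did the groups overlap, but Pck1 was called in only 1 of 6 fits that left out a library, that without cadmium replicate 2, and had adjusted p of 0.0534 to 0.108 in the rest. With the replicate block 4 of these genes were called, while calls over all peaks rose from 2325 to 3143. Hpd, the next enzyme gene of tyrosine breakdown, whose peak also carries Psmd9, was not called (log2 change -0.22). Of 10 TGF-beta signalling genes, a pathway that induces Klf10, 0 were called at the leading peak by edgeR or DESeq2. At these leading peaks 3 had an unadjusted edgeR p below 0.05, with a median log2 change of 0.15. Of the 2 Tgfb1 peaks edgeR called 1, not the leading one. Smad7, which inhibits the pathway, had a log2 change of 0.53 (edgeR adjusted p = 0.160), and Smad3, which transmits its signal, of 0.13.

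**Figure D4:**
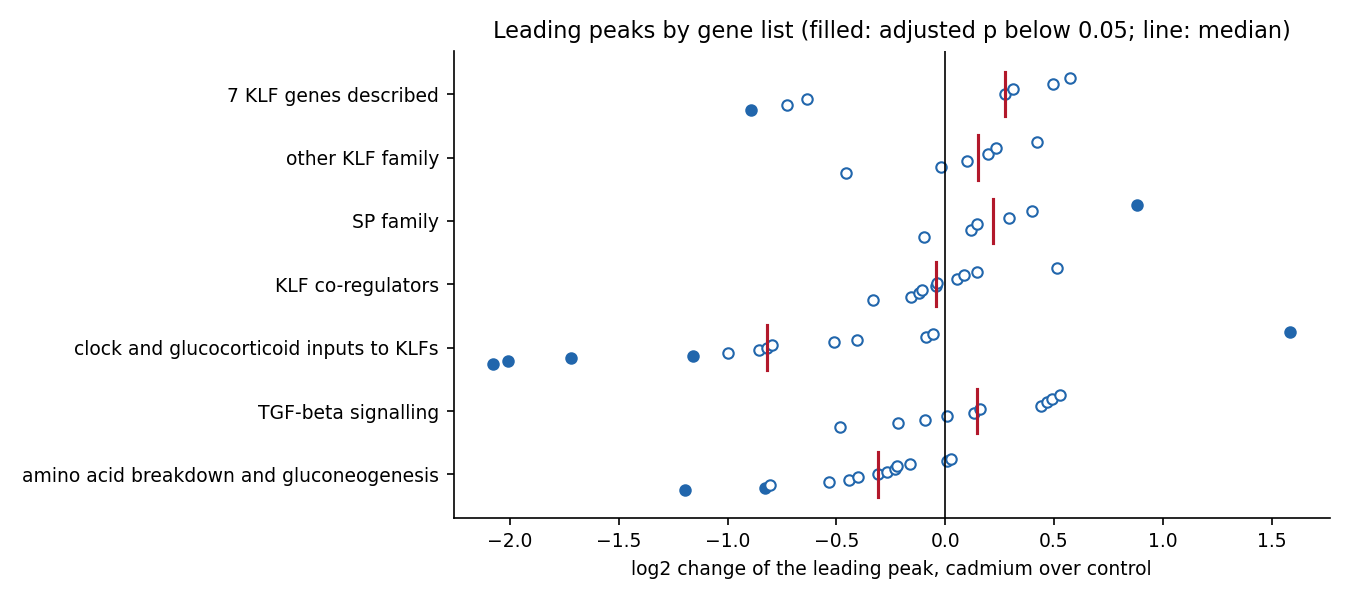
Log2 change (cadmium over control) of the leading peak of each measured gene in the 7 KLF genes and 6 gene lists, with filled points for an adjusted p below 0.05 and a red line at the median of each row. The clock and glucocorticoid row has its median at -0.82 with 4 filled points below 0 and 1 above, whereas the other KLF row has its median at 0.15 and no filled point.

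Markers of other liver cells were set beside the KLF genes, since Klf6 and other members are not confined to hepatocytes. Stellate markers summed to 118 to 144 CPM in cadmium samples and 79.1 to 102.5 CPM in control samples, the highest control being replicate 2, as for Klf6. Of 6 measured stellate markers, 1 was called, the collagen gene Col1a1, at 7.83, 4.14 and 7.05 CPM in cadmium samples and 0.937, 1.255 and 1.77 CPM in control samples (log2 change 2.26, edgeR adjusted p = 0.00268), and Acta2 had no peak. The median log2 change of the 6 was 0.49. DESeq2 called 3 of the 6, and edgeR called 3 without control replicate 2 and 2 with the replicate block. Of the 5 Lrat peaks edgeR called 2, not the leading one. Kupffer cell and macrophage markers summed to 98.9 to 133 CPM in cadmium samples and 77.5 to 103 CPM in control samples. Of the 4 measured, Cd5l was called higher (log2 change 1.14, edgeR adjusted p = 0.0158), but not without cadmium replicate 3 (0.0696) or control replicate 3 (0.0546), and Adgre1 and Timd4 had no peak. The log2 change was 0.14 for Clec4f, -0.35 for Marco and -0.81 for Vsig4, none of them called, and the median of the 4 was -0.10. Endothelial markers summed to 77.3 to 113 CPM in cadmium samples and 69.8 to 111 CPM in control samples, with Lyve1 called higher of 4 measured (log2 change 1.17, edgeR adjusted p = 0.0390), a median of 0.33 and no peak at Clec4g. That call held in 1 of the 6 fits that left out a library, that without control replicate 1, and the adjusted p was 0.0538 to 0.0880 in the rest. Cholangiocyte markers summed to 18.7 to 66.7 CPM in cadmium samples and 22.4 to 29.6 CPM in control samples, and Krt19 and Krt7 had no peak. edgeR called 0 of the 3 measured, of which 2 had an unadjusted p below 0.05, DESeq2 called 1, and edgeR called 3 without cadmium replicate 2. Of 7 neutrophil and lymphocyte markers only Cd3e had a peak, at 0.355 to 1.43 CPM in cadmium samples and 0.340 to 0.713 CPM in control samples, and it was not called. The part of these cells in the KLF values was not tested.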

How the data were processed

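Peak counts from the livers of 3 cadmium and 3 control mouse samples were analysed out of 12 labelled libraries (immunoprecipitated and input RNA). Per the labels' protocols, RNA was cut to 200 to 500 bp and pulled down with an m6A antibody, and Ovation SoLo libraries were read in pairs on an Illumina NovaSeq. The submitters' processing notes name the build mm10 and, with no roles or settings, MACS2 2.1.1, STAR 2.7.1a, DESeq2 4.1.0 (as written there), cutadapt 1.1.8 and SAMtools 1.3.1. Whether peaks were called per sample or on pooled samples, how duplicates were treated and whether counting used strand are points these sources do not give.

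The deposited table holds whole-number counts per peak, which the values show no sign of normalisation in, for 1 set of 37118 peaks. It also holds the authors' log2 fold changes and the authors' p-values and adjusted p-values, which were used only where the authors' deposited table is named. The count columns are headed per the file headers by library numbers that immunoprecipitated and input libraries share. They were read as immunoprecipitated because the rows are peaks, which is an assumption. Coordinates are as deposited, and whether starts count from 0 is not stated. Gene extents and starts came from RefSeq (GRCm38.p6, the coordinates of mm10), in which the extents of all 7 genes and the starts of 6 were found.

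The 7 genes and all gene lists were chosen with earlier results of these data known. Counts were tested in R 4.3.3 with edgeR 4.0.16 (TMM, filterByExpr with minimum count 10 and minimum total count 15, which kept 37088 peaks, then the quasi-likelihood F test) and Benjamini-Hochberg adjustment over all peaks at 0.05. All 50 KLF peaks passed the filter. Sums over the peaks of a gene were tested over 13050 genes, and peaks against the other peaks of their gene with diffSpliceDGE over 30443 peaks. In the latter test peaks were grouped by their whole annotation, so peaks with several symbols formed groups of their own. The SE was taken as the size of the log2 change over the root of the F statistic, which ties it to the p-value. A peak counted for each of its symbols, and 4551 peaks carried more than 1. Named list genes were those called (at most 6 a list) and the 2 uncalled genes with the highest leading peak, along with, for each KLF gene, the 2 genes with the most similar leading peak at or above the median level. Some genes that this rule takes are not reported here. The scripts were tested on simulated data. No replicate pair agreed within sampling noise (chi-square per degree of freedom 31.9 to 161), and the biological coefficient of variation was 19.4%.

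The labels number batches 1 to 3 like the replicates, so equal numbers pair samples. Across peaks, the deviations of paired samples from their own group mean had correlations of 0.16, 0.232 and 0.196, against -0.19 to 0.0175 for samples of different batches. Deviations from a group mean cancel within the group. The lower values for different batches therefore partly follow from the higher paired ones and are not an independent contrast. Alternatives were DESeq2 1.42.0, other scalings, no filter, the replicate block, the 2 most abundant peaks left out, peaks with several symbols left out, and each library left out.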

Additional observations from a re-analysis of the deposited data

How the results depend on the processing

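With the replicate number as a block (replicate block), 15 KLF peaks and 3 KLF gene sums were called, and 3143 peaks in all. It changed no other KLF call than those of the Klf3 and Klf15 peaks given beside them. The count over all peaks, 2325, was 3683 by DESeq2 and 543 to 1977 with 1 library left out. The 11 KLF peaks called were 7 with no scaling factor and 3 to 14 with 1 library left out, the fewest without cadmium replicate 3 (6 without cadmium replicate 1, 5 without control replicate 3). The 3 KLF genes called on sums were 1 with no scaling factor and 1 to 3 with 1 library left out, while Klf13 stayed called in each of these fits. KLF peaks called higher numbered 3 without control replicate 2, all in Klf6, and 0 in the full fit. The 8 calls over the 6 gene lists were 12 by DESeq2, 12 with the replicate block and 5 to 9 with 1 library left out. The count of KLF peaks that depart from their gene was 0 in every fit run. Values that changed sign were all uncalled. The replicate block gave -0.036 for the Klf6 peak at 5868696 and 0.015 for Klf2, and no scaling factor gave 0.0088 for Klf2. With 1 library left out, log2 changes ranged from -0.038 to 0.55 for the Klf10 sums, -0.49 to 0.35 for the Klf6 peak at 5868696, -0.17 to 0.51 and -0.13 to 0.37 for the Klf9 peaks at 23166529 and 23167918, -0.13 to 0.54, -0.029 to 0.53 and -0.17 to 0.75 for the Klf10 peaks at 38294593, 38295523 and 38300500, and -0.13 to 0.094 for the Klf12 peak at 100091214. Over the same fits they ranged from -0.25 to 0.29 for Klf2, -0.18 to 0.083 for Sp3, -0.17 to 0.16 for Crebbp, -0.11 to 0.0059 for Nr3c1, -0.030 to 0.32 for Smad3, -0.13 to 0.34 for H1f4 and -0.088 to 0.75 for Car14. The cause of these changes was not tested. Counts at the smallest KLF peaks are low, and 3 samples per group limit what can be resolved.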
